A study of Mus musculus with 12 samples.

Results

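The kidney response to cisplatin alone was read from 6 of the 12 libraries of the study, 3 from mice given cisplatin and 3 from mice given saline. All 12 mice were male BALB/c aged 8 weeks, and each library held whole-kidney RNA from 1 animal, described as a biological replicate. Saline mice received saline by intraperitoneal injection each day for 6 days. Cisplatin mice received saline for 5 days and then 1 intraperitoneal dose of cisplatin at 20 mg per kg, and were killed 24 h after it. When the saline mice were killed, or how long after their last injection, are not given in the sources used here. Dichloroacetate was given to the other 6 mice at 250 mg per kg each day, for 6 days without cisplatin or for 5 days before a dose given together with the same amount of cisplatin. These 6 libraries share no sample with the saline and cisplatin groups. Of 28991 gene identifiers counted, 20370 had enough counts to be tested, and every one of them is a member of the comparison.

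Cisplatin is a platinum compound that binds to purine bases and joins them within and between DNA strands, which blocks both replication and transcription. Cells answer with the p53 pathway, which arrests division or starts cell death, and with excision and crosslink repair. In the kidney the drug is taken up by organic cation transporters of the proximal tubule, the segment that reclaims most of the filtered solute and does so with energy from mitochondrial oxidation.

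Levels are given in CPM, the count of a gene scaled to the TMM-adjusted total of its library, and the 3 values of a group are always in the order of the replicate numbers. Library totals ran from 38236592 to 55832441 counts in saline mice and from 29614283 to 35925471 in cisplatin mice. The 2-sided quasi-likelihood test of edgeR was fitted over all 12 libraries, and a gene is said to have risen or fallen at a Benjamini-Hochberg adjusted p below 0.05. Replicate agreement was close among the 11940 genes with a mean of at least 5 CPM in both groups. Their median coefficient of variation was 6.18% in saline and 5.31% in cisplatin, and genes at lower levels were not included. The leading principal component of the 6 libraries held 82.5% of the variance and placed the saline mice at -59.4, -61.1 and -60.8 and the cisplatin mice at 66.5, 63.6 and 51.2. Because a kidney library mixes many cell types, fewer cells of a type and less RNA per cell cannot be told apart in any result here.

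Cisplatin changed most genes tested. The rises numbered 6048 (29.7%) and the falls 6196 (30.4%), which makes 60.1% of genes in either direction. Rises of at least 1 log2 unit (1 log2 unit is the logarithm of a ratio to base 2) numbered 1241 (6.09%), and falls of that size 1967 (9.66%). In 6555 genes (32.2%) every cisplatin mouse lay above every saline mouse, and in 6654 (32.7%) every one lay below. Most changes were under 1 log2 unit in size. Of the rises, 48% were under 0.5 log2 units, against 35.7% of the falls. Changes of at least 4 log2 units comprised 62 rises and 53 falls. The 62 rises started from a median of 0.0868 CPM in saline, so most of them were genes close to silent in the untreated kidney. The 53 falls started from a median of 1.11 CPM.

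Counts were less concentrated in the most abundant transcripts after cisplatin. The 100 most counted genes, picked separately in each library, held 30.8%, 30.8% and 30.4% of counts in the saline mice. They held 23.6%, 24.1% and 24.8% in the cisplatin mice. With mitochondrial genes left out, the means were 20.8% in saline and 15.5% in cisplatin. The share of the 100 genes in all counts was lower in every cisplatin mouse than in any saline mouse. An exact permutation test of 3 against 3 mice cannot go below p = 0.1, the value it gave. Mitochondrially encoded genes held 14.8%, 14.1% and 13.9% of counts in saline and 11.5%, 11.3% and 12.2% in cisplatin, again without overlap. Long noncoding genes moved the other way, from 1.81%, 1.77% and 1.79% to 2.12%, 2.17% and 2.08%, without overlap. Among genes at 100 CPM or more in saline, 20.3% rose and 60% fell. Scaling matters for small changes. With libraries scaled by their totals outside mitochondrial genes, the median of all genes moved up by 0.23 log2 units, 9177 genes rose and 3896 fell, and the share of calls that were rises went from 49.4% to 70.2%. Changes below about that shift in size therefore depend on the scaling.

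**Figure D1:**
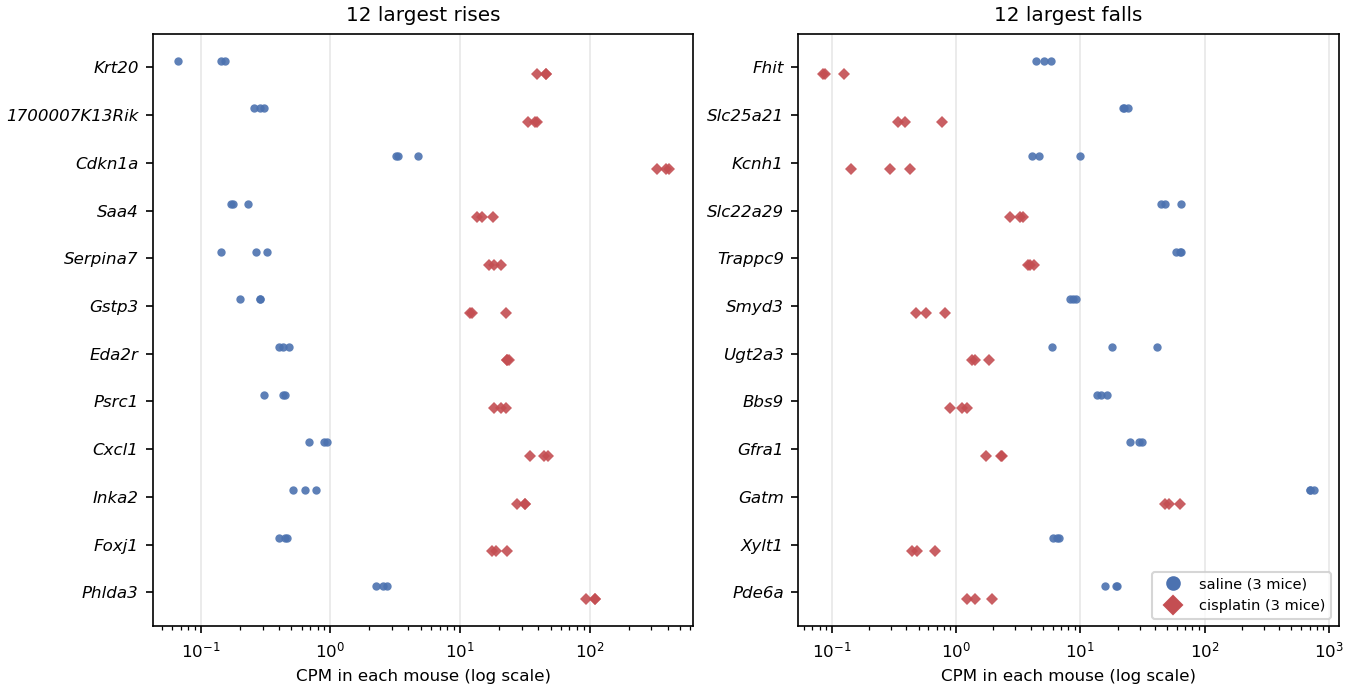
Level of the 12 largest rises and the 12 largest falls in each of the 6 mice, in CPM on a log axis, 1 point per mouse with saline and cisplatin in separate colours. In all 24 genes the 3 cisplatin mice lie on one side of the 3 saline mice.

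The largest rises among protein-coding genes at 5 CPM or more were led by genes that the saline kidney hardly expressed. Krt20, a keratin of gut and urothelial epithelium, was at 0.0664, 0.153 and 0.144 CPM in the saline mice and at 39.6, 46 and 45.7 CPM in the cisplatin mice (log2 fold change 8.46, SE 0.30, adjusted p = 1.1e-10). Its lowest cisplatin value stood far above its highest saline value. The uncharacterised gene 1700007K13Rik (ENSMUSG00000026831, chromosome 2, 28462001 to 28466332, build mm10) came next, with 0.288, 0.307 and 0.259 CPM in saline and 39.4, 38 and 33.6 CPM in cisplatin (log2 fold change 6.99, SE 0.15, adjusted p = 4.0e-12). Inka2, which encodes an inhibitor of the p21-activated kinase PAK4, went from 0.775, 0.518 and 0.633 CPM to 31.6, 31.9 and 27.5 CPM (log2 fold change 5.56, SE 0.15). The 3 genes had the same pattern, a floor below 1 CPM in each saline mouse and at least 27.5 CPM in each cisplatin mouse. Foxj1, the master transcription factor of motile cilia, went from 0.443, 0.403 and 0.46 CPM to 23, 19.1 and 17.6 CPM (log2 fold change 5.51, SE 0.23). The glutathione transferase Gstp3 was at 0.288, 0.288 and 0.201 CPM in saline and at 12.4, 11.9 and 22.8 CPM in cisplatin, with cisplatin mouse 3 above the other two.

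Upstream of a pair of these genes the sequences are shown, because they carry the DNA motif of the antioxidant response element (TGACNNNGC, the site read by NRF2 and its partners). Each line gives the 250 bases before the RefSeq start of transcription in build GRCm38.p6, read 5′ to 3′ along the gene's own strand, with the motif in capitals. Krt20 comes from chr11:99438154-99438403 on the minus strand and has the motif at bases -63 to -55 from the start. Eda2r, a receptor of the TNF family, comes from chrX:97377210-97377459 on the minus strand and has it at -137 to -129.
Krt20: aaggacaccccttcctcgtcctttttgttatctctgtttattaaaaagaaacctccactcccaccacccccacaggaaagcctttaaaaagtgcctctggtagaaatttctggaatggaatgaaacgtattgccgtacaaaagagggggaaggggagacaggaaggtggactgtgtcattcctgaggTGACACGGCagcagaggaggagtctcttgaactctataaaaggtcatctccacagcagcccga
Eda2r: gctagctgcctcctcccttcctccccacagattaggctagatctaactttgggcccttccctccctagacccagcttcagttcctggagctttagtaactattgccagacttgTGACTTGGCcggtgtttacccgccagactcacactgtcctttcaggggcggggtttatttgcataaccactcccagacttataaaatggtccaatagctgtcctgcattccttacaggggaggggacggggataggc
The motif was present on either strand in 14.3% of the 12653 promoters matched to tested genes, in 13.9% of those of the rises of at least 1 log2 unit and in 13.1% of those of the falls of that size. Its share was thus alike in all 3 sets, and the match is a description of these letters only. Krt20 and Eda2r also hold a TATAAA match each, which 7.97% of all promoters, 12% of those of large rises and 11% of those of large falls had.

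Rises were also ranked by the gain in CPM per kb of exon, which compares levels between genes. This ranking was led by Gm22133, a small RNA gene inside Ftl1, followed by Ftl1 itself and both mitochondrial ribosomal RNAs. Ftl1, the light chain of the iron store ferritin, was at 1255, 1248 and 1712 CPM in saline and 2700.4, 2827 and 2549 CPM in cisplatin (log2 fold change 0.94, SE 0.10). Its counts may be shared with Gm22133 and with the near-copy Ftl1-ps1, both of which were also among the 10 largest gains. Spp1, which encodes osteopontin, a secreted protein of injured tubules, was at 381, 318 and 329 CPM and 751, 990.3 and 696 CPM (log2 fold change 1.24, SE 0.13). The mitochondrial 12S ribosomal RNA mt-Rnr1 was at 246, 296 and 345 CPM and 721, 751 and 669.8 CPM (log2 fold change 1.27, SE 0.17), and the groups did not overlap in any of these 3 genes.

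In losses per kb, Kap led. It encodes the androgen-regulated protein of the proximal tubule and was among the most abundant transcripts of these male kidneys. The level was 19084, 21291 and 21889 CPM in saline and 6719, 9102 and 7556 CPM in cisplatin (log2 fold change -1.41, SE 0.10). Of the other 9 largest losses 6 were mitochondrially encoded messages, of which the cytochrome oxidase subunit mt-Co1 changed by -0.39 log2 units (SE 0.05). The mitochondrial transfer RNA mt-Tk, also in this ranking, varied widely among saline mice. It was at 247, 48.3 and 684 CPM in saline and 9.06, 7.25 and 6.05 CPM in cisplatin (log2 fold change -5.45, SE 1.03), without overlap between groups but with a wide error, and the log2 fold change was -4.31 without saline mouse 3.

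The largest falls among protein-coding genes at 5 CPM or more included several genes that spread over long stretches of the genome. Fhit (ENSMUSG00000060579, chromosome 14, 9550092 to 11162035, build mm10), a dinucleoside triphosphate hydrolase, was at 4.38, 5.06 and 5.84 CPM in saline and 0.0852, 0.0892 and 0.125 CPM in cisplatin (log2 fold change -5.61, SE 0.23, adjusted p = 3.0e-10). Slc25a21, the mitochondrial carrier of oxodicarboxylates, went from 21.9, 24.1 and 22.7 CPM to 0.341, 0.386 and 0.775 CPM (log2 fold change -5.47, SE 0.20), and it overlaps the gene Pax9 in the annotation. Both genes were reduced to a few percent of the saline level in all 3 cisplatin mice. Trappc9 (ENSMUSG00000047921, chromosome 15, 72589620 to 73061204, build mm10), a subunit of a vesicle trafficking complex, went from 63.3, 58.7 and 65 CPM to 4.23, 3.92 and 3.82 CPM (log2 fold change -3.96, SE 0.09), with the smallest standard error of the 12 falls. Bbs9, a subunit of the BBSome that carries proteins into cilia, went from 14.6, 16.5 and 13.6 CPM to 1.22, 0.892 and 1.12 CPM (log2 fold change -3.78, SE 0.11). The potassium channel Kcnh1 varied more among saline mice, at 4.65, 9.88 and 4.05 CPM against 0.142, 0.297 and 0.425 CPM in cisplatin (log2 fold change -4.40, SE 0.43).

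The remaining falls of this ranking included enzymes and receptors. Gatm, the mitochondrial enzyme that makes the creatine precursor guanidinoacetate, was at 759.6, 708 and 703 CPM in saline and 48.2, 51.4 and 63 CPM in cisplatin (log2 fold change -3.74, SE 0.12). Its saline level was the highest among the 12. The glucuronosyltransferase Ugt2a3 was uneven in saline, at 5.96, 18 and 41.1 CPM, and lay at 1.33, 1.43 and 1.85 CPM in cisplatin (log2 fold change -3.79, SE 0.77, adjusted p = 0.00075). Without saline mouse 3 its log2 fold change was -2.96. The histone methyltransferase Smyd3 (-3.80), the GDNF receptor Gfra1 (-3.74, overlapping Gm16277), the xylosyltransferase Xylt1 (-3.57) and the phosphodiesterase subunit Pde6a (-3.57) completed the list, each value being a log2 fold change. In none of the 12 did a cisplatin mouse reach the lowest saline mouse.

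Gene length on the genome went with the direction of change. The span from the first to the last annotated base had a median of 4.651 kb in the 12 largest rises, 306 kb in the 12 largest falls and 23.2 kb in all protein-coding genes tested. Of 1843 protein-coding genes under 5 kb, 41.7% rose and 20.7% fell. Of 1252 genes of 100 to 200 kb, 9.90% rose and 60.9% fell. Among the 237 genes of 400 kb and more, 2.95% rose, 82.3% fell and 62.9% fell by at least 1 log2 unit. The share that fell thus went up, and the share that rose went down, at every step of 7 span classes. In the pair of groups that received dichloroacetate, cisplatin gave medians of 0.14 log2 units under 5 kb, -0.20 at 100 to 200 kb and -1.05 at 400 kb and more, against 0.17, -0.43 and -1.42 here.

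The gradient was present at each level of expression. Among genes below 5 CPM in saline, 58.3% of those spanning 100 kb or more fell, against 13% of those under 20 kb. The same shares were 71.1% and 17% at 5 to 20 CPM, 70.2% and 26.8% at 20 to 100 CPM, and 83.1% and 52.6% at 100 CPM or more. Exon number followed the same order, since 40% of single-exon genes rose and 18.1% fell. Within genes under 10 kb the classes by exon number differed little, with 39.1% to 42.4% rising and 18.1% to 26.4% falling. Genes of one span share other features such as chromosome position and function, and these were not held apart. Span was likewise not held apart in the gene lists below. Among the falls named there, Atg10, Smg6, Arsb, Ghr and Mrps28 each span over 100 kb.

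**Figure D2:**
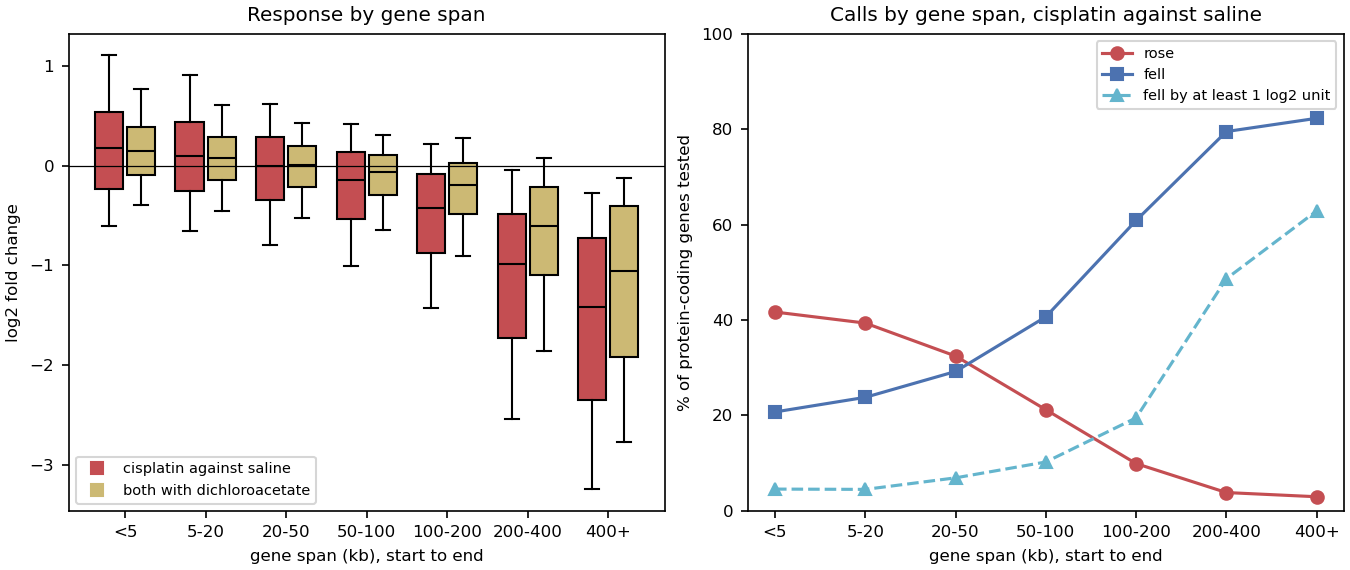
Log2 fold change of protein-coding genes by genomic span, for cisplatin against saline and for cisplatin in dichloroacetate-treated mice (boxes are quartiles with the median, whiskers the 10th to 90th percentile), and the percent of genes per class that rose, fell or fell by at least 1 log2 unit. The medians run from 0.17 under 5 kb to -1.42 at 400 kb and more for cisplatin against saline.

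A few long genes went against this gradient, and they were picked out after their values were seen. Aldh1a1, a retinaldehyde dehydrogenase spanning 151 kb, rose by 2.72 log2 units (SE 0.20), from 8.06, 8.13 and 6.96 CPM to 37.9, 44.4 and 70.6 CPM. Nrg1, a ligand of the receptors ERBB3 and ERBB4 that spans 1069 kb, rose by 2.19 (SE 0.12), from 4.87, 5.52 and 4.95 CPM to 22.3, 21.5 and 26.2 CPM. No cisplatin mouse overlapped with saline in either gene. Zbtb16, a transcriptional repressor, rose by 2.62, the membrane repair protein Myof by 1.80 and the giant cadherin Fat1 by 1.28 log2 units.

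Genes of DNA damage sensing moved in both directions. Of 24 tested members, 10 rose and 5 fell, with a median of 0.12 log2 units against -0.01 over all genes tested. The list of damage sensors and every other list below was chosen with results of these data known, so its counts are descriptions to be read against the 29.7% and 30.4% of all genes. Trp53, which encodes p53, was at 29.7, 27.5 and 27.9 CPM in saline and 61.3, 58.5 and 49 CPM in cisplatin (log2 fold change 0.99, SE 0.08). Its negative regulator Mdm2, a ubiquitin ligase and p53 target, went from 43.2, 43.6 and 41.5 CPM to 234, 202 and 186 CPM (log2 fold change 2.28, SE 0.08). Brca1, a scaffold of homologous recombination, went from 0.753, 0.671 and 0.546 CPM to 3.49, 3.72 and 3.92 CPM (log2 fold change 2.48, SE 0.16). All 3 rose without overlap, whereas a pair of the kinases that sense breaks fell. Prkdc, the catalytic subunit of DNA-dependent protein kinase, was at 21.7, 20.4 and 18.5 CPM and then 6.42, 6.09 and 7.22 CPM (log2 fold change -1.62, SE 0.08), and Atm, which responds to double strand breaks, was at 15.5, 12.6 and 10.5 CPM and 6.53, 6.18 and 6.6 CPM (-1.0, SE 0.13).

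Targets of p53 rose as a group of members. In the list of arrest, feedback and metabolic targets 18 of 22 rose and 1 fell (median 2.31), and in the list of death effectors 12 of 14 rose and none fell (median 1.83). Cdkn1a, which encodes the cyclin kinase inhibitor p21, stood at 4.72, 3.18 and 3.31 CPM in the saline mice and at 408, 391 and 332 CPM in the cisplatin mice. Bbc3, the BH3-only death protein PUMA, went from 1.95, 1.71 and 1.87 CPM to 34.5, 29.8 and 26 CPM (log2 fold change 4.03, SE 0.17), and the death receptor Tnfrsf10b from 3.34, 2.47 and 2.36 CPM to 29.5, 27 and 25.3 CPM (3.32, SE 0.15). In these genes mouse 3 was the lowest of the cisplatin mice. The exception was Sesn1, a stress-induced inhibitor of mTORC1 signalling, which fell from 16.6, 16.8 and 15.9 CPM to 10.6, 10.5 and 10.9 CPM (-0.62, SE 0.08).

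The sequences below are shown because they hold the full p53 motif, a pair of ten-base elements with a spacer of 0 to 13 bases. The search allowed up to 2 mismatches outside the core of the elements. For Cdkn1a the 250 bases before the RefSeq start (chr17:29090729-29090978, plus strand) hold a match at -73 to -42 with 0 mismatches and a spacer of 12 bases. For Ckap2, a spindle protein, the 250 bases (chr8:22185820-22186069, minus strand) hold a match at -203 to -184 with 2 mismatches and a spacer of 0. In 1700007K13Rik the match shown lies after the start, at bases 20 to 40 (chr2:28466285-28466305, minus strand), with 1 mismatch and a spacer of 1 base, and only those 21 bases are given. Each of these genes had 2 matches in the searched window. Capitals mark only 1 of them, spacer included, the one with the fewest mismatches or the first of equals.
Cdkn1a: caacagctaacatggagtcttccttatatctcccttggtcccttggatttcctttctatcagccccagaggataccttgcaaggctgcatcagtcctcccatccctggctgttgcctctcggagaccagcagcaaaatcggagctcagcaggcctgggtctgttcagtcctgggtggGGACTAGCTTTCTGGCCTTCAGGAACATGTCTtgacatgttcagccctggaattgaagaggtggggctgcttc
Ckap2: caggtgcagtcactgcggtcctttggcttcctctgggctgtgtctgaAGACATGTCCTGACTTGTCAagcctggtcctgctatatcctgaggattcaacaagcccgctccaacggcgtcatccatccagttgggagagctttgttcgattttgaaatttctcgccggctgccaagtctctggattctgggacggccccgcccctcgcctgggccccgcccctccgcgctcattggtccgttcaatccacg
1700007K13Rik: AGACTTGATCTGGGCTAGTTT
The full p53 motif occurred in 1.73% of all matched promoters, in 1.64% of those of large rises and in 1.88% of those of large falls. Beside these sequences, Ckap2 went from 0.288, 0.499 and 0.575 CPM in saline to 19.7, 17.4 and 15.9 CPM in cisplatin (log2 fold change 5.29, SE 0.19). A window of 300 bases around the start covers a small part of the regulatory sequence of a gene.

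Repair pathways that act on platinum adducts did not move as blocks. In nucleotide excision repair 10 of 23 members rose and 5 fell (median 0.15). Ercc5, the nuclease XPG, was at 19.98, 19.8 and 19.5 CPM and 50.6, 48.7 and 48.7 CPM (log2 fold change 1.32, SE 0.06), and Ercc1, the partner of XPF, at 8.88, 7.08 and 8.02 CPM and 16.6, 18.4 and 16 CPM (1.09, SE 0.09). The damage recognition factor Ddb2, a p53 target in human cells, instead fell from 21.2, 20.7 and 18.2 CPM to 15.8, 14.3 and 16.3 CPM (-0.37, SE 0.08), a call lost when libraries were scaled by their totals without mitochondrial genes (-0.14, adjusted p = 0.18). In crosslink repair and translesion synthesis 11 of 28 rose and 8 fell (median 0.12). The translesion polymerase Polk rose from 12.8, 12 and 9.95 CPM to 38.3, 35.3 and 37.5 CPM (1.67, SE 0.08). The end-joining polymerase Polq fell from 1.75, 1.5 and 1.27 CPM to 0.227, 0.178 and 0.225 CPM (-2.82, SE 0.25), and the Fanconi protein Fancd2 fell from 1.15, 0.978 and 0.661 CPM to 0.114, 0.208 and 0.325 CPM (-2.09, SE 0.32), both from low levels. Of 20 mismatch and base excision genes 9 rose and 5 fell, with Msh6 at 1.12, Apex1 at 1.09 and Msh3 at -1.07 log2 units, the first a mismatch sensor, the second an abasic site nuclease and the last a sensor of larger mismatch loops.

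Genes of RNA production and ribosome assembly rose in larger shares. Of 40 ribosome biogenesis factors 35 rose and 1 fell (median 0.59). The processing factor Rrp12 was at 9.99, 8.84 and 10.2 CPM in saline and 24.6, 22.1 and 20.9 CPM in cisplatin (log2 fold change 1.22, SE 0.09). Nucleolar proteins followed, among them the snoRNP subunit Gar1 at 1.19 and the abundant chaperone nucleophosmin, Npm1, at 0.69. Of 20 cytosolic tRNA synthetases 17 rose and none fell (median 0.33), led by the cysteine enzyme Cars at 0.90. Among 31 genes of RNA polymerase II and its elongation factors 17 rose and 8 fell (median 0.28). The largest subunit Polr2a was at 113, 93.3 and 87.2 CPM and 217, 193 and 173 CPM (0.99, SE 0.11). Of 72 splicing factors 37 rose and 9 fell (median 0.17), led by the spliceosome subunit Sf3a2 at 0.65. In mRNA decay 21 of 41 rose and 6 fell. The decay factor Zfp36l1, which binds AU-rich messages, rose from 65, 63.6 and 64.5 CPM to 231, 203 and 169 CPM (1.65, SE 0.10), and Smg6, the nuclease of nonsense-mediated decay, fell from 60.4, 59.4 and 56 CPM to 15.3, 15.4 and 17.9 CPM (-1.85, SE 0.07).

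Replication-dependent histone genes rose in 48 of 53 tested members with no fall (median 0.79, in the 3 cisplatin mice 0.88, 0.71 and 0.67). These messages lack a poly(A) tail in dividing cells, and the gene copies are nearly identical, so reads may be split among them. Hist2h4 was at 0.531, 0.499 and 0.604 CPM and 2.47, 2.2 and 2.47 CPM (log2 fold change 2.13, SE 0.21). The most abundant member, Hist1h2bc, rose by only 0.23 (SE 0.08), from 105, 108 and 130.1 CPM to 139.96, 135 and 128 CPM. Its call was lost without saline mouse 1 (0.17, adjusted p = 0.073) or saline mouse 2 (0.19, adjusted p = 0.069). Zinc finger genes named Zfp, the largest list, split into 111 rises and 73 falls of 365 (median 0.07). Among them Zfp385a, a p53-binding regulator, rose most, from 4.36, 3.53 and 2.88 CPM to 31.2, 29 and 26.9 CPM (3.01, SE 0.12).

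Long noncoding genes comprised 1933 tested genes, of which 23.7% rose and 25.7% fell. Trp53cor1, known as lincRNA-p21, was at 0.0221, 0.0575 and 0.0288 CPM in saline and 1.53, 1.04 and 0.975 CPM in cisplatin (log2 fold change 4.85, SE 0.50). Gm26917 (annotated as long noncoding, chromosome 17, 39843013 to 39846341, build mm10) had far higher counts, at 58.4, 42.6 and 61.9 CPM and 626, 626 and 420.2 CPM (3.36, SE 0.19). Neither gene overlapped between groups. Whether the reads of Gm26917 came from another transcript of that locus was not tested. The others among the 5 largest rises were Gm9530 at 4.48, 3300005D01Rik at 3.48 and 4930431F12Rik at 3.28. Gm16277 (-4.0), Gm6999 (-3.79), Gm4279 (-3.62), 4930533I22Rik (-3.51) and Gm26870 (-3.49) were the 5 largest falls. Gm26870 was not called without saline mouse 2 (-2.38, adjusted p = 0.067). Of 10 host genes of small nucleolar RNAs 6 rose and 2 fell, led by Snhg15, from 2.55, 2.47 and 1.96 CPM to 12.4, 11.8 and 11.9 CPM (2.36, SE 0.11).

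Protein turnover showed a rise of the proteasome and a mixed picture for the lysosome. Of 34 proteasome subunits 27 rose and 1 fell, with a median of 0.40, and the largest, Psmd11, rose by 0.68 (SE 0.06). Of 34 autophagy genes 10 rose and 11 fell. Sqstm1, the cargo receptor p62 and an NRF2 target, was at 451, 433 and 454 CPM and 1119.8, 1083 and 1030.1 CPM (log2 fold change 1.27, SE 0.06). Atg10, an enzyme of the conjugation system that builds the autophagosome, was at 7.84, 8.08 and 7.91 CPM and 0.767, 0.921 and 1.07 CPM (-3.10, SE 0.13), and Atg7, which activates that system, at 23.7, 23.5 and 23.6 CPM and 9.54, 11.7 and 11 CPM (-1.13, SE 0.09). The receptor rose and both enzymes fell with no overlap between groups. Atg10 spans over 100 kb, a length at which most genes fell, and the part of span was not tested. Of 39 lysosomal genes 15 rose and 15 fell. The hydrolases Gla (1.62) and Ctsb (0.82) rose, and Arsb (-2.01) and Glb1 (-1.28) fell. Of 23 subunits of the vacuolar proton pump 7 rose and 9 fell, among them the widely expressed Atp6v0b at 0.56 and the kidney form Atp6v0a4 at -1.28. The median of that list, -0.05, turned to 0.19 under scaling by totals outside mitochondrial genes.

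**Figure D3:**
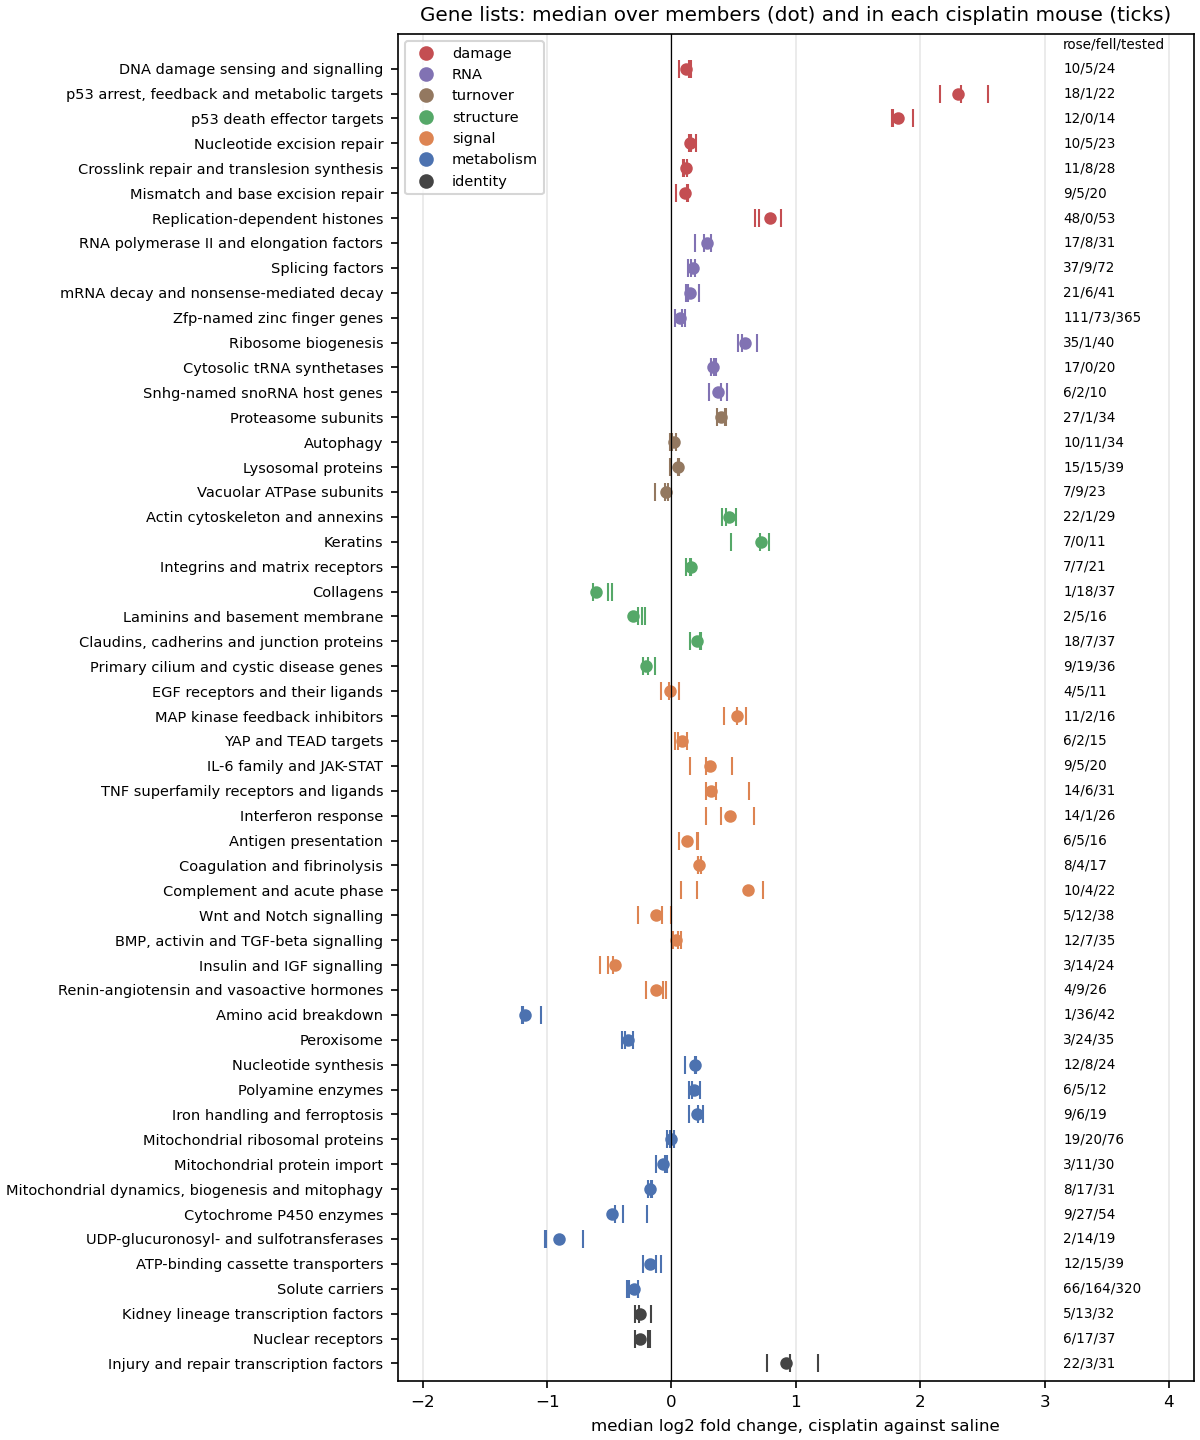
Median log2 fold change of the 53 gene lists that are not cell type markers (dots), with the median in each cisplatin mouse (ticks) and the numbers that rose, fell and were tested at the right. Targets of p53 lie highest at 2.31 and 1.83, and amino acid breakdown lies lowest at -1.17.

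Cytoskeletal genes mostly rose, and collagen genes fell more often than they rose. Of 29 actin regulators and annexins 22 rose and 1 fell (median 0.46). S100a10, the partner of annexin A2 at the membrane, went from 50.6, 54.7 and 57.2 CPM to 248, 285 and 263 CPM (log2 fold change 2.29, SE 0.08). Of 11 keratins 7 rose and none fell, and Krt8, the main keratin of tubule cells, went from 98.4, 111 and 108 CPM to 201, 208 and 191 CPM (0.92, SE 0.07). Of 37 collagen genes 18 fell and 1 rose, with a median of -0.61, and the other 18 were not called. Col27a1, a fibrillar collagen, was at 112, 107 and 119 CPM and 18.8, 25 and 31.2 CPM (-2.17, SE 0.15). The exception Col12a1, at 10.9, 7.63 and 5.69 CPM and 13.6, 10.02 and 11 CPM (0.51, adjusted p = 0.037), overlapped between groups and was not called without saline mouse 2 or 3 or cisplatin mouse 1 or 3 (0.32 to 0.54, adjusted p from 0.055 to 0.14). The basement membrane chain Col4a1 was not called (0.22, adjusted p = 0.13), but was called without saline mouse 1 (0.34, adjusted p = 0.026) and with library totals without mitochondrial genes (0.45). Of 16 laminins and other basement membrane genes 2 rose, Agrn (0.62) and Lama5 (0.49), and 5 fell.

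Junction genes rose more often than they fell. Of 37 tested 18 rose and 7 fell (median 0.20), with claudins, the proteins that set the selectivity of tight junctions, in both directions. Cldn4 was at 16.9, 14.3 and 14.8 CPM in saline and 55.4, 53.6 and 41.4 CPM in cisplatin (log2 fold change 1.71, SE 0.10). Cldn9 (2.30) and Cldn6 (1.89), typical of immature epithelium, rose from lower levels. Cldn23 went from 0.288, 0.211 and 0.201 CPM to 2.81, 2.11 and 1.4 CPM (3.14, SE 0.33), with mouse 3 the lowest of the cisplatin mice. Cldn2, which forms cation pores in the proximal tubule, fell by 0.47 log2 units and Cldn10 by 0.74. Cdh16, the kidney-specific cadherin, fell from 915, 843 and 947 CPM to 433, 452 and 494 CPM (-0.97, SE 0.06). Of 36 genes of the primary cilium and cystic disease 9 rose and 19 fell, with a median of -0.20 that became 0.03 under scaling by totals outside mitochondrial genes. The transport protein Ift122 (-1.44) and Pkhd1 (-1.30), the gene of recessive polycystic kidney disease, were among the falls, in a kidney where Foxj1 rose.

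In growth factor signalling, the ligands of the EGF receptor family diverged. Egf itself, made by the thick ascending limb and distal tubule, was at 967, 956 and 951 CPM in saline and 124, 120.2 and 158 CPM in cisplatin (log2 fold change -2.84, SE 0.19). Areg, amphiregulin, was nearly absent in saline at 0.0221, 0 and 0 CPM and reached 0.795, 0.802 and 0.85 CPM in cisplatin (adjusted p = 2.3e-06), a rise whose size cannot be fixed from so few saline counts. Nrg1 rose, as given above, and its receptor Erbb4 fell from 27.8, 22.5 and 17.5 CPM to 5.59, 5.23 and 7.82 CPM (-1.86, SE 0.25). Over the 11 members 4 rose and 5 fell, and the median of -0.01 became 0.23 under scaling by totals outside mitochondrial genes. Of 16 feedback inhibitors of MAP kinases 11 rose and 2 fell (median 0.52). The phosphatases Dusp8 (2.61), Dusp5 (2.48) and Dusp4 (1.68) rose most, while Dusp1 (-0.69) and Errfi1 (-0.73), which restrains the EGF receptor, fell. The YAP target Ccn1 was at 15.2, 13.9 and 12 CPM and 112, 93.2 and 81 CPM (2.79, SE 0.14), although only 6 of the 15 members of its list rose and 2 fell.

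Insulin and IGF genes fell, 14 of 24 against 3 rises (median -0.45). The growth hormone receptor Ghr was at 627, 620.5 and 661 CPM and 119, 161 and 189 CPM (log2 fold change -2.03, SE 0.12). The binding protein Igfbp1 fell from 17.8, 17.1 and 13.5 CPM to 2.58, 1.75 and 2.55 CPM (-2.81, SE 0.27) and Igfbp4 from 583, 668 and 705 CPM to 223, 229 and 274 CPM (-1.43, SE 0.09). In the renin-angiotensin list 4 of 26 rose and 9 fell, with a median of -0.13 that became 0.10 under the totals scaling. Its members moved apart, since the precursor Agt rose by 3.24 (SE 0.16) from 0.576, 0.441 and 0.575 CPM to 4.88, 5.05 and 5.05 CPM and the converting enzyme Ace fell by 1.48 (SE 0.08) from 190.4, 199 and 197 CPM to 67.4, 73.5 and 68.7 CPM. Of 38 Wnt and Notch genes 5 rose and 12 fell (median -0.13, or 0.10 under the totals scaling), and of 35 genes of BMP, activin and TGF-beta signalling 12 rose and 7 fell. Among these Id1, a BMP target, rose from 17.8, 19.5 and 26.5 CPM to 57.9, 70.4 and 73.7 CPM (1.67, SE 0.16), and the kidney BMP ligand Bmp7 fell from 39.4, 37.7 and 40.5 CPM to 24.2, 23.3 and 26.2 CPM (-0.67, SE 0.06).

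Cytokine signalling genes rose in part. Of 20 genes of the IL-6 family and its JAK-STAT pathway 9 rose and 5 fell (median 0.31). Lif, leukaemia inhibitory factor, was at 0.421, 0.46 and 0.633 CPM in saline and 12.2, 12.4 and 9.5 CPM in cisplatin (log2 fold change 4.51, SE 0.25). Clcf1, a ligand of the same family, was at 7.02, 5.87 and 6.1 CPM and 31.2, 30.9 and 28.6 CPM (2.26, SE 0.14), and the transducer Stat3 rose by 1.61 (SE 0.06). The receptor Lifr fell from 79.7, 74 and 71.5 CPM to 42.4, 42 and 46.7 CPM (-0.78, SE 0.06), so ligands and receptor moved in opposite directions. Among 31 TNF receptors and ligands 14 rose and 6 fell (median 0.32). Tnfrsf12a, the TWEAK receptor, was at 12.6, 13.1 and 13.1 CPM and 226, 235 and 176 CPM, and the ligand Tnfsf10, TRAIL, at 69.96, 79.6 and 73.3 CPM and 21.2, 20.7 and 23.9 CPM (-1.76, SE 0.07), while the TRAIL receptor Tnfrsf10b rose as given above.

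The promoters of Lif and of the lysosomal membrane gene Cd68 are shown because they hold the AP-1 motif (TGANTCA, the site of FOS and JUN dimers). Lif comes from chr11:4257318-4257567 on the plus strand, with the motif at -228 to -222. Cd68 comes from chr11:69666171-69666420 on the minus strand, with matches at -149 to -143 and at -24 to -18. Capitals mark the motif.
Lif: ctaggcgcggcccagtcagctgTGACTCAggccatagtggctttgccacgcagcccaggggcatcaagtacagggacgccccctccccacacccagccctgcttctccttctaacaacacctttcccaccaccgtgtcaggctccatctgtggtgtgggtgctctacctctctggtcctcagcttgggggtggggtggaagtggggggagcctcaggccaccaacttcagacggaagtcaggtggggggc
Cd68: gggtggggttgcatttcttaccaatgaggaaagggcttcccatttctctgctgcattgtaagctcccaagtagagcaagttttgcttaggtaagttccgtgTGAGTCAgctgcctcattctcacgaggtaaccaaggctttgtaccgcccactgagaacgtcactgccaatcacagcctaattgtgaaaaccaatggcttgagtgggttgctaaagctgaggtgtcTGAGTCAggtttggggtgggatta
This motif was in 5.30% of all matched promoters, in 9.36% of those of rises of at least 1 log2 unit and in 6.37% of those of falls of that size. The NF-kB motif GGANTTTCC was in 1.24%, 2.78% and 1.22% of the same 3 sets. Both were thus more frequent in promoters of large rises than in all promoters by these counts, which were not tested. The AP-1 proteins Fosl1 and Fosb are given as examples. Fosl1 was at 0.709, 0.633 and 0.776 CPM in saline and 16.6, 18 and 14.9 CPM in cisplatin (log2 fold change 4.55, SE 0.12), and Fosb at 0.155, 0.0767 and 0.0863 CPM and 4.03, 2.79 and 1.35 CPM (4.63, SE 0.47). Over the injury and repair transcription factors 22 of 31 rose and 3 fell (median 0.92), the falls being the mesenchymal factors Snai2 (-0.60), Zeb1 (-0.37) and Zeb2 (-0.26). All 3 falls lost their call with library totals without mitochondrial genes. Snai2 also lost it without saline mouse 1 or 2 or cisplatin mouse 1 or 2 (-0.57 to -0.51), and Zeb1 without saline mouse 1 (-0.31) or cisplatin mouse 1 (-0.28).

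The other motifs were searched on both strands in the same window, where a base may belong to more than one motif. The CRE (TGACGTCA) was in 2.93% of all promoters, 2.65% of those of large rises and 1.55% of those of large falls. The E-box CACGTG was in 9.54%, 7.08% and 7.76%, and CCAAT in 38.1%, 34.9% and 38%. The Sp1 motif GGGCGG was in 59.3%, 52.2% and 48.3%, and the ATF4 motif TGATGNAA in 2.36%, 3.03% and 2.45%. The CArG box of SRF was in 1.34%, 0.759% and 1.39%. Median GC content was 60% over all promoters, 57.7% in large rises and 57.3% in large falls, which bears on GC-rich motifs such as that of Sp1.

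Interferon, antigen presentation, complement and coagulation genes each included rises and falls. Of 26 interferon response genes 14 rose and 1 fell (median 0.47). Oasl1, which restrains translation of the interferon factor IRF7, went from 2.08, 1.48 and 0.92 CPM to 28.3, 23.5 and 17.8 CPM (log2 fold change 3.93, SE 0.24), and the chemokine Cxcl10 from 1.9, 0.978 and 0.776 CPM to 22.4, 20.1 and 10.4 CPM (3.83, SE 0.39). In both genes cisplatin mouse 3 was the lowest of its group. Of 16 antigen presentation genes 6 rose and 5 fell. The class I pathway gene Tap1, a peptide transporter and p53 target, rose from 6.93, 6.43 and 5.49 CPM to 24.5, 24.1 and 22 CPM (1.90, SE 0.14), and class II genes such as H2-Aa fell (-0.74, SE 0.16). Of 22 complement and acute phase genes 10 rose and 4 fell (median 0.61, in the 3 cisplatin mice 0.08, 0.73 and 0.21). Their summed level was lower in cisplatin, at 749, 832 and 812 CPM against 846, 852 and 891 CPM in saline. C3, the central complement component, went from 11.9, 17 and 11.8 CPM to 126, 155 and 148 CPM (3.39, SE 0.17), while factor B, Cfb, the more abundant message in saline, fell from 327, 368 and 403 CPM to 214, 227 and 232 CPM (-0.71, SE 0.09). Of 17 coagulation genes 8 rose and 4 fell, with the fibrinogen chain Fga from 13, 14.8 and 12.2 CPM to 68.1, 81 and 81.4 CPM (2.52, SE 0.09) and the clot-stabilising F13b from 111, 113 and 112 CPM to 24.3, 25.1 and 30.8 CPM (-2.07, SE 0.10).

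Most members of 3 metabolic lists fell. Of 42 genes of amino acid breakdown 36 fell and 1 rose (median -1.17). Hpd, an enzyme of tyrosine breakdown, was at 141, 159 and 112 CPM in saline and 23.8, 21.7 and 31 CPM in cisplatin (log2 fold change -2.43, SE 0.23), and the propionyl-CoA carboxylase chain Pcca at 144, 156 and 161 CPM and 28.3, 28 and 31.5 CPM (-2.39, SE 0.07). The exception was Glud1, glutamate dehydrogenase, which was higher in every cisplatin mouse, at 433, 441 and 495 CPM against 361, 421 and 413 CPM in saline (0.20, adjusted p = 0.043). That call was lost without saline mouse 1 (0.13) or cisplatin mouse 2 (0.22) or 3 (0.13), and without dichloroacetate mouse 2 (0.19) or mouse 1 given both agents (0.20). Of 35 peroxisomal genes 24 fell and 3 rose (median -0.35). Amacr, a racemase of branched fatty acid and bile acid oxidation, fell from 342, 357 and 415 CPM to 89, 93.6 and 96.7 CPM (-1.99, SE 0.10). Of 19 glucuronosyl- and sulfotransferases 14 fell and 2 rose (median -0.91), among them Ugt2b38 from 805, 997 and 1134 CPM to 153, 201 and 220.3 CPM (-2.35, SE 0.15), whose close copies on chromosome 5 may share reads.

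Cytochrome P450 genes fell in 27 of 54 cases and rose in 9 (median -0.47). Cyp2e1, which metabolises ethanol and small solvents, was at 1831, 2265 and 2225 CPM and 362, 337 and 390.1 CPM (log2 fold change -2.54, SE 0.14). The fatty acid hydroxylase Cyp4b1, more abundant still, was at 3503, 3768 and 3721 CPM and 1084, 1088 and 1189.7 CPM (-1.71, SE 0.09). Its relative Cyp4a14, a PPARA target, rose from 5.36, 7.65 and 11.4 CPM to 28.3, 50.4 and 109 CPM (2.97, SE 0.40), and without cisplatin mouse 3, the highest, its change was 2.29. Of 320 solute carriers 164 fell and 66 rose (median -0.30, or -0.07 under the totals scaling). The fatty acid transporter Slc27a2 went from 3508, 4037 and 3929 CPM to 606, 768 and 899 CPM (-2.34, SE 0.12), and the organic anion transporter family member Slc22a28 from 267, 312 and 339.7 CPM to 32.4, 40.7 and 47.7 CPM (-2.93, SE 0.14). Against them, the phosphate carrier Slc20a1 went up from 32.4, 38.7 and 33.8 CPM to 173, 175 and 162 CPM (2.28, SE 0.12) and the thiamine transporter Slc19a2 from 14.7, 16 and 16.1 CPM to 78.1, 70.6 and 68 CPM (2.21, SE 0.07). ABC transporters split 12 to 15 of 39 (median -0.17, or 0.06 under the totals scaling). The drug exporters Abcb1b (2.10), Abcc2 (1.65) and Abcb1a (1.34) rose, and Abca13 (-2.47) and Abcc6 (-1.97) fell.

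Smaller metabolic groups were mixed. Of 24 nucleotide synthesis genes 12 rose and 8 fell. Cad, which starts pyrimidine synthesis, went from 15, 12.1 and 13.7 CPM to 39.4, 36.6 and 33 CPM (log2 fold change 1.42, SE 0.08). Of 12 polyamine enzymes 6 rose and 5 fell. Arg2, mitochondrial arginase, rose by 2.30 and the oxidase Smox by 1.97, while spermine synthase, Sms, fell by 1.06 log2 units. Of 19 genes of iron handling and ferroptosis 9 rose and 6 fell. Hmox1, haem oxygenase, was at 18.8, 16.4 and 20.3 CPM and 141, 134 and 131 CPM (2.87, SE 0.11), and the transferrin receptor Tfrc fell from 65, 79.6 and 84.4 CPM to 46.4, 49.3 and 49 CPM (-0.66, SE 0.09).

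Nuclear genes that build mitochondria showed few large changes. Of 76 mitochondrial ribosomal proteins 19 rose and 20 fell (median -0.0016, or 0.0024 with RLE scaling and 0.23 under the totals scaling). Mrps28 stood out with 17.9, 21.3 and 23.9 CPM and 4.8, 5.85 and 6.92 CPM (log2 fold change -1.84, SE 0.13). Of 30 import genes 3 rose and 11 fell (median -0.07, or 0.17 under the totals scaling), with Dnajc19 at -1.11. Of 31 genes of mitochondrial dynamics, biogenesis and mitophagy 8 rose and 17 fell (median -0.17, or 0.06 under the totals scaling). The mitochondrial kinase Pink1 fell from 293, 305 and 326 CPM to 161, 169 and 176 CPM (-0.87, SE 0.06), the coactivator Ppargc1a from 72, 72.5 and 70.04 CPM to 41.4, 36.4 and 45.6 CPM (-0.80, SE 0.10), and the carrier Ucp2 rose from 56.5, 60.6 and 71.9 CPM to 139.8, 166 and 172 CPM (1.34, SE 0.12).

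Transcription factors that maintain tubule identity fell more often than they rose. In the lineage list 13 of 32 fell and 5 rose (median -0.25, or -0.02 under the totals scaling). Hnf4a, a nuclear receptor that drives proximal tubule genes, was at 656, 745 and 771 CPM and 301, 318 and 419 CPM (log2 fold change -1.06, SE 0.12). Maf, a leucine zipper factor, was at 255, 233 and 242 CPM and 107, 101 and 112 CPM (-1.19, SE 0.06). Groups did not overlap in either gene. Elf3, an epithelial factor, rose from 13.5, 14 and 14.2 CPM to 30.9, 30.7 and 25.3 CPM (1.06, SE 0.10), and so did Pax2 (0.37) and Sall1 (0.37), which act in kidney development. Pax2 was not called without saline mouse 2 (0.28, adjusted p = 0.065) or cisplatin mouse 3 (0.25, adjusted p = 0.073). Of 37 nuclear receptors 17 fell and 6 rose (median -0.25, or -0.02 under the totals scaling). Esr1, the oestrogen receptor, fell from 13.7, 12.8 and 14.1 CPM to 1.25, 1.6 and 1.67 CPM (-3.16, SE 0.12), and the thyroid hormone receptor Thrb from 33.8, 37 and 39.1 CPM to 4.29, 5.26 and 8.22 CPM (-2.61, SE 0.16).

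A pair of promoters of strongly reduced genes is shown because they hold the HNF1 half-site (GTTAAT, which reads ATTAAC on the opposite strand). Slc22a29, an organic anion transporter family member, comes from chr19:8218901-8219150 on the minus strand, with the motif in its reverse reading at -29 to -24. Ugt2a3 comes from chr5:87337196-87337445 on the minus strand, with matches at -54 to -49 and at -47 to -42. Capitals mark the motif.
Slc22a29: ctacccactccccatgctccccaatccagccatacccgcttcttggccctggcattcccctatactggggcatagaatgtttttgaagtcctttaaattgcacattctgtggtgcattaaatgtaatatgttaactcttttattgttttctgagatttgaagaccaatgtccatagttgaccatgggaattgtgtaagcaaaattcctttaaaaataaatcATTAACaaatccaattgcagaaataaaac
Ugt2a3: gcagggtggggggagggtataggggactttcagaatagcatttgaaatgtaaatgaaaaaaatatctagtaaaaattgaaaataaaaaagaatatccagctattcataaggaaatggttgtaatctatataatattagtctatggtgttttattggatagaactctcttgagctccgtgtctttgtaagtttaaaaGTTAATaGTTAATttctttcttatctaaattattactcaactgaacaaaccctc
The half-site was in 4.88% of all matched promoters, in 4.8% of those of large rises and in 8.08% of those of large falls. Of genes with the half-site in the promoter 40.4% fell and 25.1% rose, with a median change of -0.15 log2 units. Over all protein-coding genes tested 33.2% fell and 30.9% rose. The half-site is rich in A and T, and median GC content was 60% over all promoters, 57.7% in large rises and 57.3% in large falls. The part of GC content was not tested. Slc22a29 itself was at 44.3, 48.3 and 64.8 CPM in saline and 2.7, 3.27 and 3.47 CPM in cisplatin (log2 fold change -4.05, SE 0.34).

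Markers placed the falls along the whole nephron, with segments S1 and S2 of the proximal tubule lowest. The kidney label was borne out by the abundance of tubule markers in both groups. Of 14 markers of proximal tubule segments S1 and S2, 13 fell and none rose (median -1.72), and their summed level was 10557 to 11554 CPM in saline and 2850 to 3485 CPM in cisplatin. Cubn, the receptor for filtered protein, was at 315, 333 and 392 CPM and 56.3, 64.1 and 78.8 CPM (log2 fold change -2.38, SE 0.11), and its partner Lrp2, megalin, at 1963, 1961 and 2231 CPM and 452, 485 and 624 CPM (-1.98, SE 0.11). Of 10 markers of segment S3, 9 fell (median -1.01). The distal convoluted and connecting tubule list had a median of -1.02, with 9 of 10 falling. Slc12a3, the thiazide-sensitive cotransporter, was at 405, 384 and 479.9 CPM and 69.2, 54.4 and 59.9 CPM (-2.79, SE 0.13). In the thick ascending limb 7 of 10 fell and 1 rose, with uromodulin, Umod, at 2339.6, 2102 and 2302 CPM and 1011, 886 and 1189 CPM (-1.13, SE 0.13). Principal cells (7 of 10 fell, median -0.46) and intercalated cells (8 of 11 fell, median -0.40) changed less, and the water channel Aqp2 was not called at 288, 246 and 286 CPM and 236, 281 and 253 CPM (-0.09, adjusted p = 0.51). The largest intercalated fall, Slc4a1 at -0.97, is also counted in the erythroid list below.

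**Figure D4:**
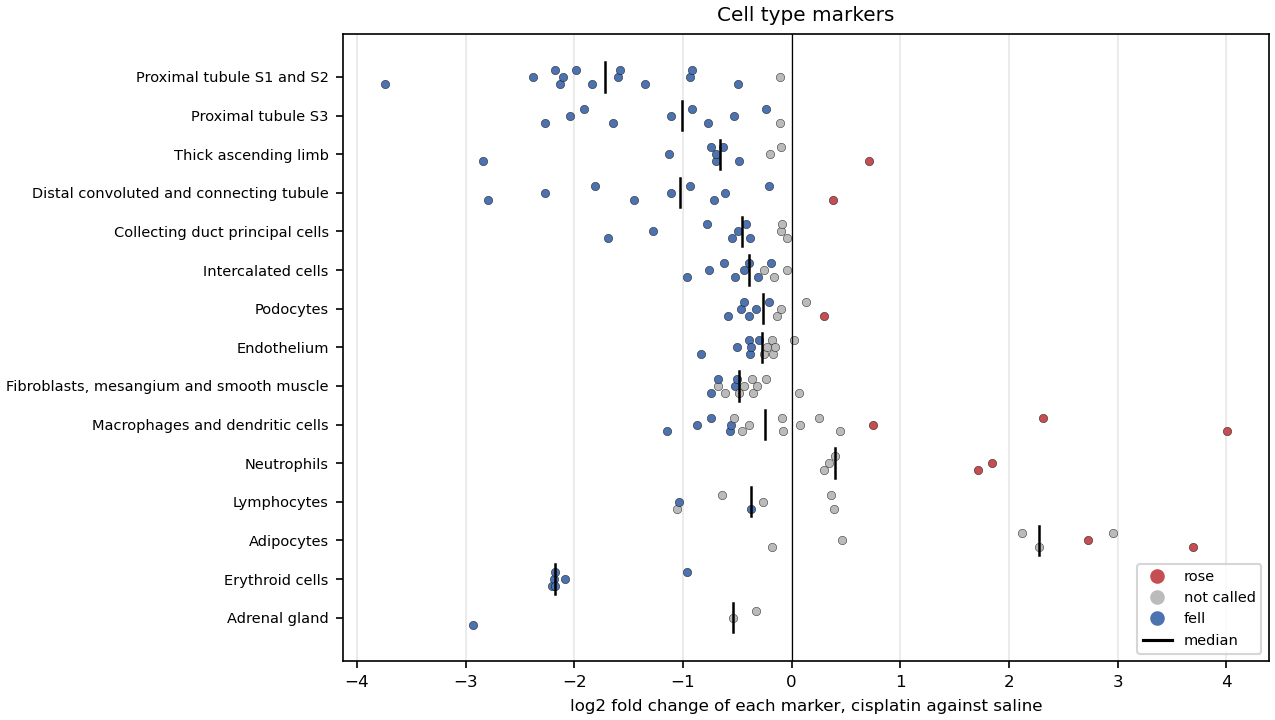
Log2 fold change of each cell type marker, 1 point per gene, coloured by whether it rose, fell or was not called, with the median of each cell type in black. The medians are -1.72 for proximal tubule segments S1 and S2, -0.46 for principal cells and -0.28 for endothelium.

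Markers of podocytes, endothelium, stroma and immune cells were mixed. Podocyte markers fell in 6 of 10 cases and rose in 1 (median -0.27, or -0.03 under the totals scaling). Endothelial markers fell in 6 of 12 (median -0.28, or -0.05 under the totals scaling). Fibroblast, mesangial and smooth muscle markers fell in 4 of 13 (median -0.49), and lymphocyte markers in 2 of 7 tested, while the T cell markers Cd3e and Cd3d had too few counts to be tested. Macrophage and dendritic cell markers fell in 5 of 16 and rose in 3, and their summed level overlapped, at 232 to 261 CPM in saline and 205 to 248 CPM in cisplatin. Cd68 went from 2.66, 1.94 and 1.52 CPM to 41.6, 32.7 and 25 CPM (log2 fold change 4.0, SE 0.24), and the other rises were Cd14 (2.31), a receptor of bacterial lipopolysaccharide, and Itgam (0.75, adjusted p = 0.041). Itgam was not called without saline mouse 2 or 3 or cisplatin mouse 1 or 2 (0.54 to 0.75, adjusted p from 0.080 to 0.16). The falls included Csf1r (-0.87), Mrc1 (-1.15) and Cd74 (-0.56), the last not called with library totals without mitochondrial genes (-0.33, adjusted p = 0.096). Adgre1 was at -0.57 (adjusted p = 0.042) and was not called without any single saline or cisplatin mouse (-0.65 to -0.44, adjusted p from 0.054 to 0.15), by DESeq2 (adjusted p = 0.060) or with library totals without mitochondrial genes (-0.34, adjusted p = 0.23). The neutrophil granule genes Elane, Ngp and Camp also had too few counts. Of 5 tested neutrophil markers S100a8, at 0.0886, 0.115 and 0.144 CPM and 0.511, 0.505 and 0.25 CPM, and S100a9, at 0.288, 0.288 and 0.144 CPM and 0.596, 1.04 and 0.825 CPM, rose, and none fell. No mouse was far above 1 CPM for either gene.

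Markers of blood differed between mice as well as groups, while the summed level of fat markers overlapped between groups. All 6 erythroid markers fell, with a summed level of 291, 397 and 658 CPM in the saline mice and 87.9, 85.0 and 159 CPM in the cisplatin mice. The alpha globin Hba-a1, which shares reads with its near-identical copy Hba-a2, was at 55.2, 78.4 and 145 CPM and 15.9, 15.7 and 29.2 CPM (-2.19, SE 0.41). Adipocyte markers rose in 2 of 7 cases (28.6%), near the 29.7% of all genes. Their summed level was 53.5, 48.3 and 47.1 CPM in saline and 36.6, 53.4 and 57.5 CPM in cisplatin. The rises were Cidec, from 0.244, 0.173 and 0.144 CPM to 2.27, 2.65 and 2.52 CPM (3.69, SE 0.63), and Retn, from 0.0221, 0.0767 and 0 CPM to 0.142, 0.357 and 0.3 CPM. Retn was not called without saline mouse 1 or 3 or cisplatin mouse 2 or 3 (2.31 to 2.62, adjusted p from 0.083 to 0.099), and stood at 4.10 without saline mouse 2. The fat marker Cfd, not called, was at 0.199, 0.288 and 0.288 CPM and 0.0284, 1.99 and 1.75 CPM, and was called without cisplatin mouse 1 (2.86, adjusted p = 0.043). The part of either cell type in the results above was not tested.

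The median size of the change differed among the 3 cisplatin mice, a difference that was not tested. Over the 3208 genes changed by at least 1 log2 unit, the median change in the called direction was 1.60 log2 units in mouse 1, 1.55 in mouse 2 and 1.39 in mouse 3. The saline mice lay between -0.01 and 0.02, near zero because their own mean was the baseline. These genes were chosen for their change in the same mice, so the values are a description. Genes with the widest range among cisplatin mice showed this order of the mice only in part. The neighbouring olfactory receptor genes Olfr1443, at 0.511, 0.921 and 14 CPM, and Olfr1442, at 0.682, 0.773 and 14 CPM, were high in mouse 3 alone, against 0.244, 0.441 and 0.403 CPM and 0.133, 0.134 and 0.201 CPM in saline. Their log2 fold changes were 3.84 and 5.08 with all mice, and 0.97 and 2.23 without cisplatin mouse 3. The retinoic acid hydroxylase Cyp26b1 was at 0.421, 4.35 and 0.949 CPM in saline and 11.4, 5.05 and 2.82 CPM in cisplatin. It was not called (adjusted p = 0.054 in the edgeR test), and mouse 3 was the lowest of the cisplatin mice. Cyp26b1 was called without cisplatin mouse 3 (2.04, adjusted p = 0.030) or saline mouse 2 (3.27, adjusted p = 0.0035), with a replicate block (1.75, adjusted p = 0.029), with no filter (1.68) and with library totals without mitochondrial genes (1.92).

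The direction of change was carried over to the 6 other mice. Cisplatin given after dichloroacetate, against dichloroacetate alone, called 8286 genes (40.7%), in libraries that share no sample with those above. Of the 6048 rises 3607 (59.6%) were called in the same direction there and 11 in the opposite one. Of the 6196 falls 3475 (56.1%) were called alike and 97 opposite. The rises of at least 1 log2 unit had a median of 1.61 here and 1.00 there, and the falls of that size -1.55 here and -0.92 there. The difference itself, tested as an interaction, was called in 3783 genes (18.6%). It was called in 463 of the 1241 large rises and in 877 of the 1967 large falls. These genes were chosen for their change in the saline and cisplatin mice, which favours a smaller response in the other mice, so the medians and these counts are a description. Fosl1 rose by 4.55 log2 units here and by 1.31 with dichloroacetate (interaction adjusted p = 9.2e-06), and Cubn fell by 2.38 and 0.83 (adjusted p = 7.0e-05). Cdkn1a rose by 6.65 and 6.02, and its interaction was not called (adjusted p = 0.12 in the edgeR test).

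**Figure D5:**
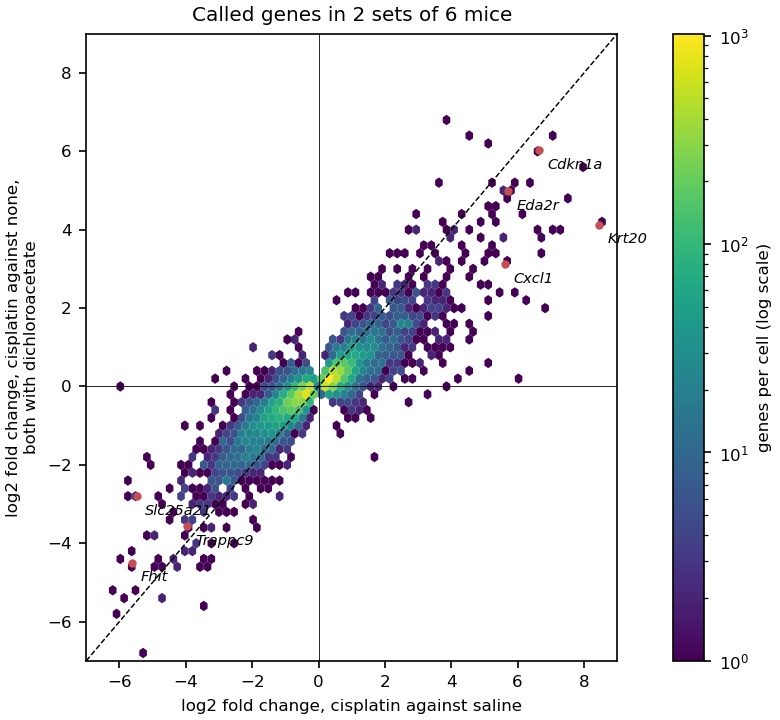
Log2 fold change of called genes for cisplatin against saline (horizontal) and for cisplatin with dichloroacetate against dichloroacetate (vertical), as the number of genes per hexagon, with a dashed line of equality. The medians of large rises, 1.61 and 1.00, and of large falls, -1.55 and -0.92, are nearer to zero on the vertical axis.

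Some genes named above overlap another annotated gene, and the library kit keeps no record of strand in its basic form, so their counts may include reads of the partner. Besides those said to overlap where they were named, these are mt-Co1, Fhit, Nrg1, Fat1, Ercc1, Ddb2, Fancd2, Msh6, Apex1, Msh3, Cars, Sf3a2, Zfp36l1, Smg6, Gm16277, Gm6999, Gm26870, Snhg15, Sqstm1, Ctsb, Arsb, Glb1, Atp6v0b, Atp6v0a4, Col4a1, Pkhd1, Dusp1, Ace, Stat3, Fosl1, Zeb1, Zeb2, Oasl1, Cxcl10, Tap1, Cfb, Pcca, Slc27a2, Slc20a1, Abcb1b, Arg2, Dnajc19, Ucp2, Maf, Elf3, Cubn, Csf1r and Cd74. Genes with identical counts in all 12 libraries numbered 122 in 44 groups, and 34 of the large rises and 14 of the large falls were among them. The 39 T cell receptor alpha joining segments on chromosome 14 all rose, from group means of at most 0.254 CPM in saline, and 28 of them fall into 3 groups of identical counts, so they are not separate measurements.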

How the data were processed

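Whole-kidney RNA from 12 mice was sequenced. Per the labels' protocols, total RNA was column-purified and DNase-treated, and libraries were made with a TruSeq RNA kit. The submitters' processing notes name Trimmomatic, TopHat, Cufflinks, HTSeq, bedtools, DESeq and build mm10, without versions or settings; strand and overlap settings of the counting are not given in the sources used here. Whole-number read counts per Ensembl gene, 1 column per library, were deposited by the authors, and all values come from these counts. Of 28991 identifiers, 27955 matched a symbol in GENCODE M21 (build GRCm38, the assembly of mm10) and 1036 did not. A second deposited table, of normalised values, was not used.

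Genes kept by filterByExpr (20370) were tested in R 4.3.3 with edgeR 4.0.16 (TMM scaling, quasi-likelihood F-test, 1 mean per group over all 12 libraries, 8 residual degrees of freedom, biological coefficient of variation 0.0917). P-values were adjusted over all tested genes by Benjamini-Hochberg. SE is the log2 fold change divided by the root of the F statistic. Per-mouse medians of lists use log2 CPM with a prior count of 2. Counts of replicate pairs differed beyond sampling noise (chi-square per degree of freedom 4.64 to 28.2), so each library is 1 sample, and the tests measure the spread between these mice. Precision is limited by 3 mice per group. The fit was tested on simulated data.

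The comparison and all 68 gene lists were chosen with earlier results of these data known. Named genes are the 12 largest rises and falls among called protein-coding genes at 5 CPM or more, the 10 largest gains and losses in CPM per kb of exon, the 2 most changed members and the most abundant member of each list, the 5 largest rises and falls of long noncoding genes at 1 CPM or more, and the 6 genes most variable among cisplatin mice. Other list members, chosen after their values were seen, are named as examples. A few genes that the rule names are not reported here. Promoters (RefSeq, GRCm38.p6, 250 bases before to 50 after the start) were matched to 12653 tested genes, 12454 by symbol and 199 by an older or other symbol. The alternatives were RLE and upper-quartile scaling, totals without mitochondrial genes, DESeq2 1.42.0, other filters, 6 libraries only, a replicate block, leaving out each mouse, and, chosen after seeing the data, counting identical genes once.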

Additional observations from a re-analysis of the deposited data

Results flagged for a closer look

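The response to cisplatin differed between mice with and without dichloroacetate in 3783 genes by the interaction test of edgeR (adjusted p below 0.05). Among the 12 largest rises, 6 had a called interaction. The interaction, the log2 response with dichloroacetate minus that without it, was -4.33 for Krt20, -2.50 for Cxcl1, -1.80 for Serpina7, -1.75 for Foxj1, -0.86 for Phlda3 and -0.73 for Eda2r. Among the 12 largest falls, 5 had one, at 2.68 for Slc25a21, 1.60 for Xylt1, 1.49 for Gfra1, 0.84 for Gatm and 0.40 for Trappc9. These genes were chosen as the extremes of cisplatin against saline, 1 arm of the interaction, which favours a smaller response in the other arm, so the signs are a description. No outlier test was made within groups of 3 mice.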

How the results depend on the processing

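The counts of genes that rose (6048) and fell (6196) moved beyond 1.5 times under library totals without mitochondrial genes, to 9177 and 3896, which shifts all log2 values up by the scaling itself. That setting kept all 6048 rises and 3896 of the falls, and turned the sign of 478 called genes. Among the named genes 2 changed sign under it. Ift20, otherwise not called (-0.04), went to 0.20, and Atp6v1g3, otherwise called (-0.19), to 0.050 log2 units and was not called. Under the other scalings, filters and DESeq2 the rises numbered 5571 to 6072 and the falls 5618 to 6329. Changes of at least 1 log2 unit depended more on the filter. They numbered 2346 with a stricter filter at 1 CPM and 3744 with no filter, against 3208 in the main fit. Leaving out 1 saline or cisplatin mouse gave 5531 to 5930 rises, 5349 to 6099 falls, 3072 to 3506 changes of at least 1 log2 unit (3208 with all mice) and, over all groups, 2692 to 4213 interactions. Same-numbered saline and cisplatin mice did not deviate together (r = 0.03, -0.04 and -0.01), and a fit with a replicate block called 6081 rises and 6253 falls. Over the named genes 3256 comparisons with an alternative kept their direction and their side of the threshold, 41 lost the call, 18 gained it and 2 reversed. Of 68 list medians 9 changed sign under a scaling. Counting genes with identical counts once gave 6010 rises and 6186 falls. Genes near silence in saline have few counts behind the size of their rise.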

Other observations

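Transcript classes that enter no comparison above also differed. Of 376 small nucleolar RNA genes tested 39.1% rose and 11.7% fell (median 0.27 log2 units), and of 224 small nuclear RNA genes 11.6% rose and 22.8% fell (median 0.06). Most small RNAs lie inside host genes, whose reads they may share. Of 1745 pseudogenes 30.3% rose and 22.4% fell. On the mitochondrial chromosome 3 of 37 genes rose and 26 fell.

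Chromosomes differed in the balance of calls. The highest share of rises among autosomes was on chromosome 19, where 36.1% of 646 genes rose and 28.2% fell, and the lowest on chromosome 6, where 25.4% of 962 genes rose and 36.3% fell. Chromosomes also differ in gene span and in gene families, and the part of these was not tested.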
